A study of Mus musculus with 9 samples.

Results

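The 10 genes described here encode secreted ligands of the TGF-beta family and a pair of proteins that bind such ligands outside the cell. They are Tgfb1, Tgfb2 and Tgfb3, the activin subunit genes Inhba and Inhbb, the bone morphogenetic protein (BMP) genes Bmp2, Bmp4 and Bmp7, and the antagonist genes Grem1 and Fst, chosen by gene symbol among 55359 genes of a ribosome footprint count table. Each symbol matched 1 row. The cells were mouse preadipocytes of the inguinal white fat depot in 3 groups of 3 libraries: not induced (day 0), and 4 or 8 days into beige adipocyte differentiation. Beige fat cells arise in white fat and can spend stored lipid on heat. For day 4 and day 8 cells, the first 2 days were in a medium with dexamethasone, 3-isobutyl-1-methylxanthine, indomethacin, insulin, triiodothyronine and rosiglitazone, and the later days were in a medium without the first 3 of these agents. The labels give no strain, sex, age or number of animals.

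Ligands of the family are made as larger precursors that proteases cut, and they signal as dimers through a complex of type I and type II receptor kinases. TGF-beta and activin pass the signal to Smad2 and Smad3, and BMPs pass it to Smad1, Smad5 and Smad9, each of which joins Smad4 to act on genes in the nucleus. Follistatin, the product of Fst, binds activins, and gremlin 1, the product of Grem1, binds BMP2, BMP4 and BMP7. In fat tissue, TGF-beta and activin are known as signals that hold precursor cells back from becoming fat cells, while BMP4 and BMP7 are known to promote commitment to the white and brown or beige fat lineages.

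Library totals ran between 30823028 and 38994892 counts. Markers of fat cells were present as labelled, with the summed level of 6 adipocyte markers between 243 and 308 CPM at day 0, between 32344 and 50481 CPM at day 4 and between 48344 and 51744 CPM at day 8 (CPM, the usual depth-scaled count, here on library sizes adjusted by the trimmed mean of M values, TMM). Fabp4 made up most of that sum in every library. All 6 genes were called higher at both later days than at day 0. Of the 6, 2 (Adipoq and Cidec) were lower at day 8 than at day 4. The 3 thermogenic markers summed to between 2.10 and 2.47 CPM at day 0 and between 19.2 and 55.3 CPM at day 4. At day 8 they summed to 1068, 1093 and 486 CPM. Day 4 replicate 2 stood apart within its day, with 12.8 on the first principal component (75.9% of the variance) against 64.8 and 65.4 for its fellow libraries, and day 8 replicate 3 had 62.1 against 85.5 and 85.8. The 7 precursor markers summed to 1823 CPM in day 4 replicate 2, against 804 and 918 CPM in the other libraries of day 4, and to between 2402 and 2551 CPM at day 0 and between 527 and 721 CPM at day 8. Pdgfra and Pdgfrb make up most of that sum, and the list did not move as 1 group: at day 4, 3 of the 7 (Ly6a, Dlk1 and Cd34) were called higher and 2 (Pdgfrb and Dpp4) lower than at day 0, with a median log2 fold change of 0.41, and at day 8, 0 were higher and 3 lower. Leaving out day 4 replicate 2 and day 8 replicate 3 turned the day 4 median to -0.51, where 2 precursor markers were higher and 3 lower. At day 8, 0 were then higher and 5 lower, and the median moved from -0.74 to -1.30. The day 4 direction of this list therefore depended on the outlying libraries. Several results that rest on these libraries are given with and without them.

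Of the 10 genes, 8 passed the filter on low counts and were tested, and Bmp2 and Bmp7 did not pass it. Footprints of Tgfb1, Tgfb3, both activin genes, Bmp4 and Grem1 were lower at both later days than at day 0, while Tgfb2 and Fst were called lower at day 8 and not at day 4. At day 4, 6 of the 8 tested genes were called lower than at day 0 and 0 higher, where 58.2% of all 14714 tested genes were called (28.4% lower and 29.8% higher). At day 8, 8 of 8 were called lower than at day 0, where 67.7% of tested genes were called (33.5% lower and 34.2% higher). The median log2 fold change of the 8 genes was -2.23 at day 4 and -2.04 at day 8, beside -0.02 and -0.01 over all tested genes, and both comparisons use the same day 0 libraries. Bmp4 passed the filter only through day 0, where it was high, so its lower calls lend no support to these counts. Without it, 5 of 7 genes were lower at day 4 and 7 of 7 at day 8, with medians of -2.02 and -2.70. A gene was called at an adjusted p under 0.05 in the quasi-likelihood test of edgeR, adjusted over all tested genes. Without day 4 replicate 2 and day 8 replicate 3, a choice made after seeing the data, 7 and 8 genes were called lower and 66.6% and 70.9% of all tested genes were called. The day 8 calls of Tgfb2 and Bmp4 were lost in 5 and 8 of 18 alternatives. With replicate number as a block, 6 of the 8 genes were called at day 8. A footprint count depends on how much mRNA there is and on how densely ribosomes occupy it, and in bulk lysates fewer cells of a type and less of its RNA per cell cannot be told apart.

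**Figure D1:**
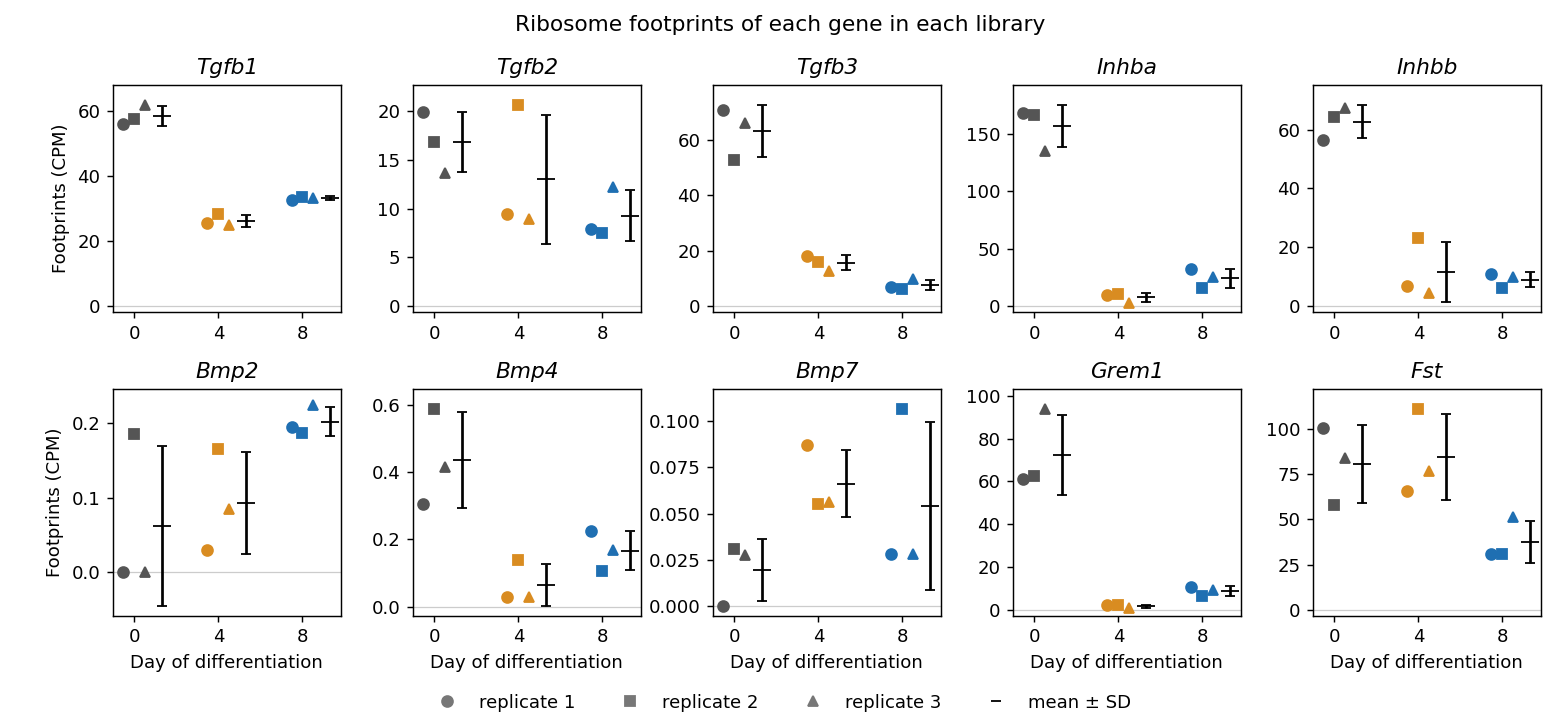
Footprint level of each gene (CPM, linear axes, each with its own range) by day of differentiation, with 1 point per library and the mean ± SD of the 3 libraries beside them. Inhba and Grem1 are lowest at day 4 and stand between that low and the day 0 level at day 8, Tgfb3 is lower again at day 8, and Fst is lower at day 8 than at both earlier days.

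Of the 10 genes, 6 have a promoter in a RefSeq-derived table of the older mouse build GRCm38.p6, and the 250 bases before the transcription start are shown for 3 of them. Grem1 and Inhba are shown because they share the pattern of a deep low at day 4 and a partial return at day 8, and Tgfb2 because its day 4 change was not called. The sequences run 5′ to 3′ on the strand of the gene, and capitals mark CAGAC, the core of the element that Smad3 and Smad4 bind, searched on both strands. The windows are chr2:113758649-113758898, minus strand, for Grem1, chr13:16011601-16011850, plus strand, for Inhba, and chr1:186705990-186706239, minus strand, for Tgfb2.
Grem1: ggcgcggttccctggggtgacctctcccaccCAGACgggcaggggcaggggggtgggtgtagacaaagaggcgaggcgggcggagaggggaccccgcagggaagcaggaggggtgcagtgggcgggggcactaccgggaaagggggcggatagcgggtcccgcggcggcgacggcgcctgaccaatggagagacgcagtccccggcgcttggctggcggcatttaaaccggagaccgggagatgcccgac
Inhba: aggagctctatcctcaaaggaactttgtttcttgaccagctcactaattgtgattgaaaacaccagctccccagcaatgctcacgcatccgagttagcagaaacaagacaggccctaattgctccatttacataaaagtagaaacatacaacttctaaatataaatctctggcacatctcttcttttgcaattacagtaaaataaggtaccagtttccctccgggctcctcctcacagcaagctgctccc
Tgfb2: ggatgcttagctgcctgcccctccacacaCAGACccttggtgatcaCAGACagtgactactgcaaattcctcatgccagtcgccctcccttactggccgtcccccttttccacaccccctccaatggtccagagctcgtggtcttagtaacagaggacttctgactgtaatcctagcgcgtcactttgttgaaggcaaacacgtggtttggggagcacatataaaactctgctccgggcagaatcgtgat
CAGAC was found in 1 place before Grem1, 219 bases before the start, in 2 places before Tgfb2, at 221 and 204 bases, and nowhere in the window of Inhba. It occurs in 42.2% of the 32851 promoter windows of the same length. The windows also differ in base composition, with 72% G and C before Grem1, 53.6% before Tgfb2 and 43.2% before Inhba. The sequence TATAAA, the core of the TATA box, lies 31 bases before the start of Tgfb2 and 91 bases before that of Inhba, and occurs in 12.4% of windows. Grem1 has GGCGCC, a GC-rich sequence bound by Smads, 78 bases before the start, which 9.59% of windows hold, and CCAAT was found at 69 bases in Grem1 and at 130 bases in Tgfb2 (33.8% of windows). CACGTG, the E-box, was found 51 bases before the start of Tgfb2 (6.02% of windows), and TGANTCA, the AP-1 site, in none of the 3 (6.75%). These 6 motifs did not overlap each other there, and a match is a description of letters and not of binding.

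All 3 TGF-beta genes were lower at day 8 than at day 0, and Tgfb1 and Tgfb3 also at day 4. Tgfb1 (ENSMUSG00000002603), the isoform that circulates and that immune cells also make, had 55.8, 57.5 and 61.7 CPM at day 0, 25.4, 28.3 and 24.8 CPM at day 4, and 32.4, 33.6 and 33.1 CPM at day 8. The libraries of each day lay close together and no 2 days overlapped. The level at day 4 was 2.23-fold lower than at day 0 (log2 fold change -1.16 ± 0.09 SE, edgeR adjusted p = 5.11e-06) and that at day 8 was 1.77-fold lower (-0.82 ± 0.09, adjusted p = 3.26e-05). Day 8 was above day 4 by 0.34 ± 0.09 (adjusted p = 0.0197), the smallest called change among the 10 genes. That call was lost without day 4 replicate 3, day 8 replicate 1 or day 8 replicate 2 (log2 fold change 0.30, 0.34 and 0.32, adjusted p = 0.0683, 0.0562 and 0.0696), and over its alternatives the adjusted p ran between 0.00127 and 0.0819. Macrophages are a known source of Tgfb1, and 8 markers of macrophages and leukocytes, all above 0, summed to between 65.2 and 123 CPM at day 0, between 59.0 and 78.1 CPM at day 4 and between 19.4 and 49.5 CPM at day 8. Lyz2 was the largest part of that sum at day 0, and Ptprc, Adgre1 and Cd68 were not called at either later day. Of these markers 1 was called lower at day 4 and 5 at day 8 than at day 0. Over all tested genes 28.4% and 33.5% were called lower, and 58.2% and 67.7% in either direction. Without day 4 replicate 2 and day 8 replicate 3, 2 and 6 of the markers were lower. C1qb, among those lower at day 8, passed the filter only through days 0 and 4. The part of these markers in the level of Tgfb1 was not tested.

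Tgfb3 (ENSMUSG00000021253), an isoform known from palate and lung development, was lower at each later day. It had 70.7, 52.8 and 66.3 CPM at day 0, 18.1, 16.0 and 12.8 CPM at day 4, and 6.73, 6.28 and 9.60 CPM at day 8, with no overlap between any 2 days. Relative to day 0 it was 4.05-fold lower at day 4 (-2.02 ± 0.19, edgeR adjusted p = 1.79e-05) and 8.39-fold lower at day 8 (-3.07 ± 0.20, adjusted p = 1.67e-06). The step between the differentiated stages was also called, with day 8 lower than day 4 by 2.07-fold (-1.05 ± 0.19, adjusted p = 0.00388).

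Tgfb2 (ENSMUSG00000039239), an isoform known from heart and eye development, had 19.9, 16.9 and 13.7 CPM at day 0, 9.45, 20.6 and 8.94 CPM at day 4, and 7.96, 7.54 and 12.3 CPM at day 8. Day 4 replicate 2 held the highest value of all 9 libraries, so day 4 overlapped day 0, while day 8 lay below day 0 in every library. The day 4 change of -0.37 ± 0.32 was not called (edgeR adjusted p = 0.35). Without day 4 replicate 2 it was -0.87 and called (adjusted p = 0.0065, with 0.000466 to 0.728 over its alternatives). At day 8 the gene was 1.82-fold lower than at day 0 (-0.86 ± 0.33, adjusted p = 0.0389). This call was lost without day 0 replicate 1 or 2 (-0.72 and -0.86, adjusted p = 0.125 and 0.0782), without day 8 replicate 1 or 2 (-0.75 and -0.72, adjusted p = 0.12 and 0.127) and with replicate number as a block (adjusted p = 0.0633), with a range of 6.23e-05 to 0.127. Between day 8 and day 4 it stood at -0.49 ± 0.33 (adjusted p = 0.278), and at 0.01 without day 4 replicate 2.

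To set the isoforms against each other, and to compare genes without their lengths, the log2 ratio of a pair of genes was taken in each library and its day 0 mean subtracted, so that length cancels. The ratio of Tgfb3 to Tgfb1 was 0.00 ± 0.23 at day 0, -0.86 ± 0.24 at day 4 and -2.26 ± 0.33 at day 8 (SD, n = 3), with no overlap of the days. The ratio of Tgfb2 to Tgfb1 was 0.00 ± 0.34 at day 0, 0.69 ± 0.57 at day 4 and -0.06 ± 0.39 at day 8, and its day 4 values were 0.38, 1.35 and 0.34 with the highest in replicate 2. An exact two-sided permutation test of these ratios gave p = 0.1 for Tgfb3 to Tgfb1 in all 3 comparisons, the smallest that 3 against 3 libraries can give and 0.136 after Benjamini-Hochberg adjustment over the 15 ratio tests run, so no ratio could pass 0.05. For Tgfb2 to Tgfb1 the exact permutation p was 0.1 for day 4 against day 0, 1 for day 8 against day 0 and 0.2 for day 8 against day 4.

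**Figure D2:**
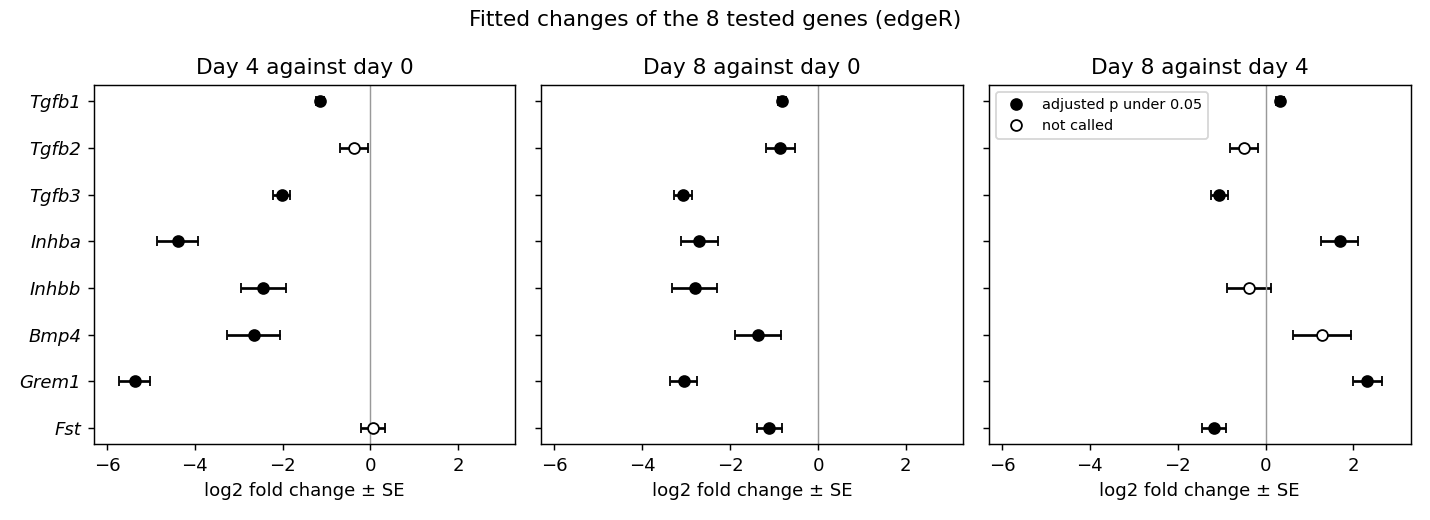
Fitted log2 fold change ± SE of the 8 tested genes in the 3 comparisons, with filled points for an edgeR adjusted p under 0.05. Most points lie left of 0 against day 0, whereas between day 8 and day 4 Tgfb1, Inhba and Grem1 lie right of it and Tgfb3 and Fst left of it.

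Both activin subunit genes fell at both later days. Inhba (ENSMUSG00000041324) encodes the subunit that forms activin A. It had 168.8, 166.5 and 135.7 CPM at day 0, 9.22, 10.5 and 2.71 CPM at day 4, and 32.0, 15.4 and 25.0 CPM at day 8, and no 2 days overlapped. The level was 21-fold lower at day 4 (-4.39 ± 0.46, edgeR adjusted p = 3.23e-05) and 6.51-fold lower at day 8 than at day 0 (-2.70 ± 0.42, adjusted p = 0.000301). Day 8 was 3.23-fold above day 4 (1.69 ± 0.42, adjusted p = 0.0145), so the gene was lowest at day 4. That difference lost its call when day 8 replicate 1 was left out, the library with the highest day 8 value (1.43, adjusted p = 0.059, with 0.000357 to 0.059 over its alternatives).

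Inhbb (ENSMUSG00000037035), which encodes the subunit of activin B and is known as a product of fat cells, had 56.5, 64.4 and 67.4 CPM at day 0, 6.77, 23.3 and 4.54 CPM at day 4, and 10.9, 6.04 and 9.97 CPM at day 8. Every library of both later days lay below day 0, and day 4 replicate 2 stood well above its fellow libraries. The gene was 5.44-fold lower at day 4 (-2.44 ± 0.51, edgeR adjusted p = 0.00238) and 7.01-fold lower at day 8 than at day 0 (-2.81 ± 0.52, adjusted p = 0.000864). Without day 4 replicate 2 the day 4 change was -3.47 (adjusted p = 1.17e-06, with 1.19e-07 to 0.0102 over its alternatives). Day 8 and day 4 differed by -0.37 ± 0.50 (adjusted p = 0.61), and the sign turned without day 4 replicate 2 (0.66, adjusted p = 0.0663, with 0.0663 to 0.942 over its alternatives). The ratio of Inhba to Inhbb was 0.00 ± 0.29 at day 0, -1.80 ± 0.83 at day 4 and 0.09 ± 0.13 at day 8 (SD, n = 3), and day 4 did not overlap the other days (exact permutation p = 0.1 against each, the smallest possible).

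Fst (ENSMUSG00000021765), the activin antagonist gene, was called lower at day 8 and not at day 4. It had 100.5, 57.7 and 83.8 CPM at day 0, 65.6, 111 and 76.9 CPM at day 4, and 30.6, 30.8 and 51.0 CPM at day 8. Day 4 and day 0 overlapped widely, and every day 8 library lay below them. The day 4 change of 0.07 ± 0.27 was not called (edgeR adjusted p = 0.846), and its sign turned under 5 of 18 alternatives, library totals and upper quartile scaling among them. Day 8 was 2.15-fold lower than day 0 (-1.11 ± 0.28, adjusted p = 0.00513) and 2.26-fold lower than day 4 (-1.17 ± 0.28, adjusted p = 0.0115). The call against day 4 was lost without day 8 replicate 1 (-1.05, adjusted p = 0.0508, with 0.00042 to 0.0508 over its alternatives).

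The ratio of an activin gene to the antagonist gene puts both in 1 value. The log2 ratio of Inhba to Fst, with its day 0 mean subtracted, was -0.24, 0.54 and -0.30 at day 0, -3.82, -4.40 and -5.82 at day 4, and -0.93, -1.99 and -2.02 at day 8. The 3 days did not overlap, and the exact permutation p was 0.1 in each comparison. The ratio of Inhbb to Fst was 0.00 ± 0.50 at day 0, -2.88 ± 0.91 at day 4 and -1.74 ± 0.50 at day 8 (SD, n = 3). Both later days lay apart from day 0 (exact permutation p = 0.1 each), but day 4 and day 8 overlapped (exact permutation p = 0.3).

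**Figure D3:**
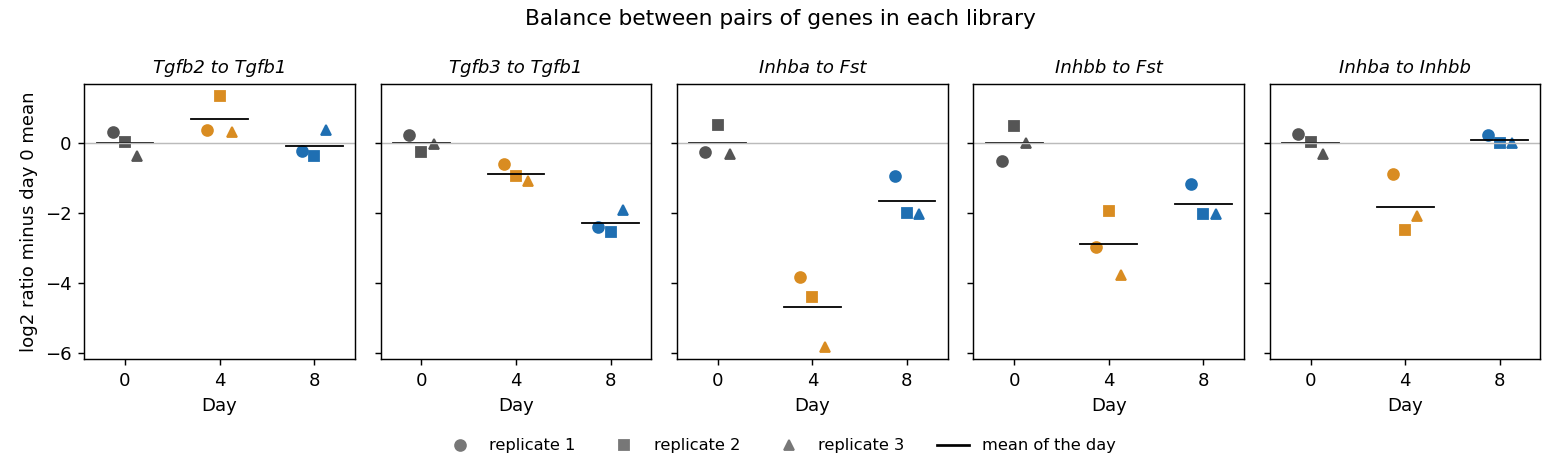
Log2 ratio of 5 pairs of genes in each library, minus the mean of that ratio over the day 0 libraries, by day, with 1 point per library and a line at the mean of the day. The Inhba to Fst points lie lowest at day 4, between -5.82 and -3.82, and the Tgfb3 to Tgfb1 points step down at each day.

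Grem1 (ENSMUSG00000074934), the BMP antagonist gene, had the largest fold change of the 8 tested genes at day 4. It had 61.1, 62.4 and 93.9 CPM at day 0, 2.21, 2.12 and 0.931 CPM at day 4, and 10.8, 6.25 and 9.13 CPM at day 8. The 3 days did not overlap, and day 4 replicate 2 lay within the range of its fellow libraries. The gene was 41.3-fold lower at day 4 (-5.37 ± 0.35, edgeR adjusted p = 1.63e-06) and 8.30-fold lower at day 8 than at day 0 (-3.05 ± 0.30, adjusted p = 1.81e-05). Day 8 was 4.97-fold above day 4 (2.31 ± 0.33, adjusted p = 0.00118). These 3 calls held in all 18 alternatives.

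Footprints on the BMP genes themselves were very few. Bmp4 (ENSMUSG00000021835) had 10, 19 and 15 counts in the day 0 libraries, 1, 5 and 1 at day 4, and 8, 4 and 6 at day 8. It passed the filter only through day 0, where it is high, so that its difference from day 0 was favoured by the filter. The fitted change was -2.66 ± 0.60 at day 4 (edgeR adjusted p = 0.0037) and -1.37 ± 0.52 at day 8 (adjusted p = 0.0383). Without day 4 replicate 2 the first was -3.76 (adjusted p = 0.00104, with 0.00104 to 0.0197 over its alternatives). The second was lost in 8 of 18 alternatives, among them DESeq2 (adjusted p = 0.0679), the replicate block (0.0681), no filter on low counts (0.1) and leaving out day 0 replicate 2 (-1.11, 0.14), day 0 replicate 3 (-1.41, 0.0775), or day 8 replicate 1, 2 or 3 (-1.63, -1.13 and -1.37, with 0.0533, 0.136 and 0.0889). Day 8 stood at 1.29 ± 0.67 relative to day 4 (adjusted p = 0.166), and at 2.39 without day 4 replicate 2 (adjusted p = 0.0466, with 0.0466 to 0.385 over its alternatives).

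Bmp2 (ENSMUSG00000027358) had 0, 6 and 0 counts at day 0, 1, 6 and 3 at day 4, and 7, 7 and 8 at day 8. Pooled over the libraries of a day this was 0.0592 CPM at day 0 (95% exact Poisson interval 0.0217 to 0.129), 0.0942 CPM at day 4 (0.0452 to 0.173) and 0.202 CPM at day 8 (0.127 to 0.306). The day 0 counts all came from replicate 2, whose level of 0.186 CPM was close to the lowest at day 8 (0.187 CPM), and a difference between days was not tested. Bmp7 (ENSMUSG00000008999), the BMP known for brown fat commitment, had 0, 1 and 1 counts at day 0, 3, 2 and 2 at day 4, and 1, 4 and 1 at day 8, which pools to 0.0197 (0.00239 to 0.0713), 0.0659 (0.0265 to 0.136) and 0.0551 CPM (0.0202 to 0.12). A library with 0 counts allows up to 3 counts, or 0.0802 to 0.0929 CPM over the 9 libraries, so these genes were at or near the limit of detection at this depth. Such intervals cover counting error only.

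Counts for the lists that follow stand beside the shares of all tested genes given above, which were 29.8% higher and 28.4% lower at day 4 and 34.2% higher and 33.5% lower at day 8. Of 25 other ligand genes of the family 11 were tested. At day 4, 3 were higher and 3 lower than at day 0, a share near the 58.2% called over all genes, and at day 8, 5 were higher and 5 lower, where 67.7% were called. Without day 4 replicate 2, 5 were lower at day 4. Gdf5 passed the filter only through day 4 and Bmp8b only through day 8, the days where each was highest. At day 0 they had 8, 3 and 6 counts and 0, 4 and 0 counts. Their higher calls on those days lend no support to these counts, and both are named after their values were seen. Gdf6 had 197, 207 and 257 counts at day 0, 15, 16 and 4 at day 4, and 3, 5 and 10 at day 8, and passed the filter only through day 0. Gdf11 was 5.86-fold lower at day 4 and 12.3-fold lower at day 8 than at day 0. The day 4 change of Gdf11 was -3.19 on the log2 scale without day 4 replicate 2 and -2.55 with it. Bmp8a was 3.99-fold higher at day 4 than at day 0. Gdf15, a stress-induced hormone, had 17.7, 9.97 and 13.3 CPM at day 0, 11.02, 13.6 and 7.22 CPM at day 4, and 114, 117 and 71.1 CPM at day 8, and was 7.39-fold above day 0 at day 8. Gdf10 was 3.61-fold lower at day 8 than at day 4 (-1.85, and -2.48 without day 8 replicate 3).

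Most receptor genes were lower. Of 15 tested receptors and co-receptors, 12 were lower and 2 higher at day 4 than at day 0, and 13 were lower and 2 higher at day 8 than at day 0. Acvr1c, which encodes the type I receptor ALK7 known in fat cells, had 0.0305, 0.155 and 0.193 CPM at day 0, 47.3, 15.1 and 41.1 CPM at day 4, and 47.5, 42.0 and 36.5 CPM at day 8. At day 0 it had 1, 5 and 7 counts, near the limit of detection, and it passed the filter only through the later days, so no fold is given. Acvr2b, the other receptor gene called higher, also passed only through the later days, and is named after its values were seen. Bmpr1b, a type I BMP receptor gene, was 15.7-fold lower at day 4 and 21.6-fold lower at day 8 than at day 0, and Acvr1 was 3.22-fold and 4.48-fold lower. Between day 8 and day 4, 0 receptor genes were higher and 4 lower, where 31.8% of all tested genes were called (17.1% lower). Without day 4 replicate 2 and day 8 replicate 3, 7 were lower, where 36.5% of all tested genes were called. Tgfbr2, the type II receptor gene of TGF-beta, was 2.10-fold lower and Acvrl1 1.89-fold lower at day 8 than at day 4. Acvrl1 is known from endothelial cells, and 5 endothelial markers summed to between 19.4 and 27.5 CPM at day 0, to 6.11, 19.9 and 6.01 CPM at day 4 and to between 3.39 and 7.78 CPM at day 8. Tek made up most of that sum at day 0 and day 4, and Pecam1 was not called at either later day. Of these markers 1 (Cdh5) was lower at day 4 and 4 at day 8 than at day 0. Without day 4 replicate 2 and day 8 replicate 3, 4 were lower at each. Cdh5 passed the filter only through day 0, Kdr only through days 0 and 4, and Emcn had 1, 0 and 0 counts at day 8. The lower calls of these 3 genes at day 8, and of Cdh5 at day 4, lend no support to these counts. The part of the endothelial markers in the receptor changes was not tested.

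Among the 8 Smad genes, 5 were lower and 0 higher at day 4, and 6 lower and 1 higher at day 8 than at day 0. The 5 of 8 called at day 4 are near the 58.2% called in either direction over all genes. The higher one, Smad2, was not called with upper quartile scaling or without day 0 replicate 2 or day 8 replicate 2, and only 3 were lower without day 8 replicate 1. Smad3, which carries TGF-beta and activin signals, was 2.46-fold lower at day 4 (-1.30 ± 0.10) and 2.77-fold lower at day 8 (-1.47 ± 0.10) than at day 0. Smad4, the shared partner, was 1.44-fold lower at day 4, and Smad1, on the BMP branch, 2.26-fold lower at day 8. Smad7, an inhibitor that both branches induce, had 8.93, 11.8 and 6.99 CPM at day 4, against 35.8, 35.3 and 28.2 CPM at day 0, and at day 8 it was 1.89-fold higher than at day 4 and 1.89-fold lower than at day 0.

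Of 13 other antagonist genes tested, 8 were lower and 1 higher at day 4, and 8 lower and 2 higher at day 8 than at day 0. The higher genes, named after their values were seen, were Chrdl1 (2.32-fold at day 4 and 3.13-fold at day 8) and Nog (7.35-fold at day 8). Nog had 10, 13 and 13 counts at day 0. Crim1, which tethers BMPs at the cell surface, was 3.70-fold lower at day 4 and 2.84-fold lower at day 8. Bmper was 1.53-fold lower at day 4, 4.30-fold lower at day 8 and 2.82-fold lower at day 8 than at day 4, while Twsg1 was 1.55-fold lower at day 4. Nbl1 was 5.82-fold lower at day 8 than at day 0, and Chrd, which encodes the BMP antagonist chordin, 2.66-fold lower at day 8 than at day 4.

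Genes that store, cut or activate the ligands fell in most cases, with 12 of 17 lower and 1 higher at day 4 and 14 lower and 1 higher at day 8 than at day 0. Tll1, among those lower at day 8, had 6, 4 and 17 counts at that day and passed the filter only through days 0 and 4. Its day 8 call lends no support to this count, and it is named after its values were seen. Thbs1, whose product thrombospondin 1 can activate latent TGF-beta, was 14.7-fold lower at day 4 (log2 -3.88, and -4.52 without day 4 replicate 2). The integrin gene Itgb5 was 4.53-fold lower at day 4 and 5.29-fold lower at day 8, and Pcsk5, a proprotein convertase, 2.77-fold lower at day 4. Of the latent TGF-beta binding proteins, Ltbp1 was 5.39-fold and Ltbp3 2.41-fold lower at day 8 than at day 0. Ltbp1 and Ltbp4 were 3.83-fold and 2.92-fold lower at day 8 than at day 4. Ltbp4 was the gene of this list called higher at day 4, 2.02-fold above day 0, and at day 8 it was 1.45-fold below day 0.

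Most genes known to respond to TGF-beta fell. Of 15 TGF-beta response genes, 13 were lower at day 4 and 13 at day 8 than at day 0, and 0 were higher in either comparison. Without day 4 replicate 2 and day 8 replicate 3 together, 14 were lower and 1 higher in each, and 1 was also higher at day 4 without day 4 replicate 2, day 8 replicate 1 or day 8 replicate 3. The median log2 fold change was -1.83 at day 4 and -2.72 at day 8. Pmepa1, a feedback inhibitor, had 102.6, 91.7 and 84.2 CPM at day 0, 12.71, 12.03 and 8.69 CPM at day 4, and 13.01, 9.70 and 12.96 CPM at day 8 (8.33-fold lower at day 4 and 7.81-fold lower at day 8 than at day 0). The repressor genes Tgif1 and Skil were 4.72-fold and 3.51-fold lower at day 4, Skil and the oxidase gene Nox4 were 2.45-fold and 6.44-fold lower at day 8, and Tgif1 was 2.85-fold higher at day 8 than at day 4. Some of these genes are also expressed by contractile cells, and 4 smooth muscle and pericyte markers summed to between 132 and 210 CPM at day 0, between 17.3 and 28.2 CPM at day 4 and between 23.6 and 26.2 CPM at day 8, with 2 of the 4 called lower at each later day and 1 called higher at day 8 than at day 0. Cnn1 made up most of that sum at day 0. The part of these markers in the change of the response genes was not tested.

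The 9 BMP response genes include Smad6 and Smad7, also counted with the Smad genes, and Bambi, also counted with the antagonists. Of the 9, 1 was lower and 1 higher at day 4, and 6 were lower and 1 higher at day 8 than at day 0. At day 4, 5 were lower without day 4 replicate 2, and 2 without day 0 replicate 3 or day 8 replicate 3. Smad7 was the lower gene at day 4, and Id1, a direct BMP target, was the higher one, 1.59-fold above day 0 (0.67 ± 0.14, edgeR adjusted p = 0.00274). At day 8 Id1 was 1.74-fold lower than at day 4, Id3 was 2.36-fold lower than at day 0, and Bambi was 2.03-fold lower than at day 0 and 2.06-fold lower than at day 4. Hey1, a Notch and BMP target, was the gene called higher at day 8, and was named after its value was seen. The difference between the response lists was not tested.

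**Figure D4:**
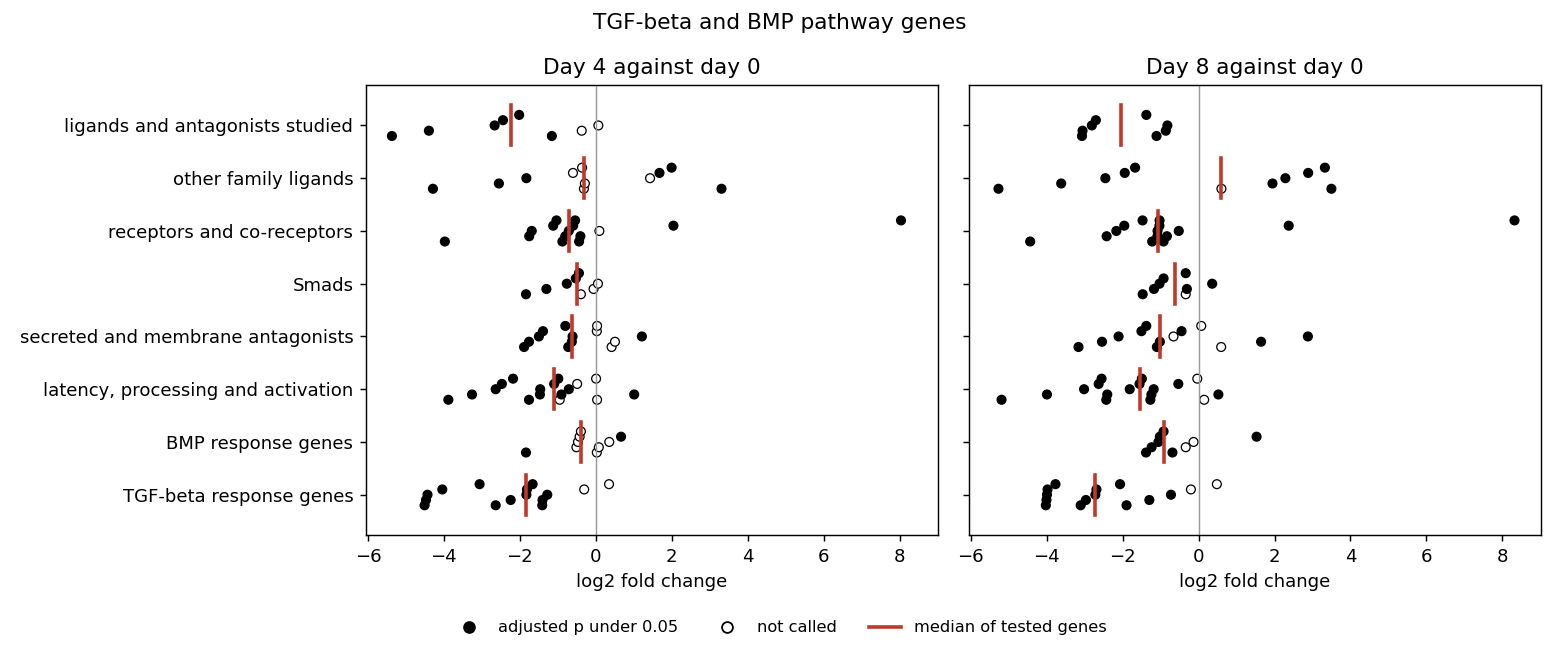
Log2 fold changes of the tested genes of each list at day 4 and day 8 against day 0, with 1 point per gene, filled where the edgeR adjusted p was under 0.05, and a red line at the median of the list. Medians of the ligand and antagonist genes described first and of the TGF-beta response genes lie farthest left, and the receptor point beyond 8 is Acvr1c, which was near the limit of detection at day 0.

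Between day 8 and day 4, 5 of the 8 tested genes were called, 3 higher (Tgfb1, Inhba and Grem1) and 2 lower (Tgfb3 and Fst), where 31.8% of all tested genes were called, 14.7% higher and 17.1% lower. Without day 8 replicate 1, 2 genes were called. Leaving out day 4 replicate 2 and day 8 replicate 3 gave the same count of 3 higher and 2 lower. Ordered by level, day 0 was therefore highest and day 4 lowest for Tgfb1, Inhba and Grem1, and day 8 was lowest for Tgfb3 and Fst, while day 8 and day 4 of Tgfb2, Inhbb and Bmp4 were not separated by the test.

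The genes whose pattern over the 9 libraries was most like each of these genes were found by Pearson correlation of log2 CPM among 8255 genes with a mean of at least 10 CPM. These values describe libraries that share the split of day 0 from the later days, and carry no test. Inhba was closest to the transcription factor gene Runx1 (r = 0.998) and to Angpt4 (0.994), and Grem1 to Acbd3 (0.993) and Aldh18a1 (0.99). Tgfb1 was closest to Lbh and Hspa13 (0.991 each), Tgfb3 to Ptpn13 (0.993) and Cers6 (0.992), and Inhbb to Litaf (0.994) and Sgce (0.991). Likeness was lower for Tgfb2, with Lbr (0.946), for Fst, with Recql (0.965) and Fkbp9 (0.961), and for Bmp4, with Arfip1 (0.979) and Rgs16 (0.973).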

How the data were processed

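Ribosome footprints of 9 libraries were analysed from raw counts per Ensembl gene as deposited, with 1 column per library. The submitters' processing notes name cutadapt, HISAT2 and featureCounts as tools and GRCm39 as the build. Their versions, the strand setting and the counted feature were not given in the sources used here. Library totals and the filter follow from the table: filterByExpr (minimum count 10) kept 14714 of 55359 genes. Counts were TMM-scaled and tested with edgeR 4.0.16 (quasi-likelihood, R 4.3.3), with a design of the 3 days and every library in a single model, at a Benjamini-Hochberg adjusted p under 0.05 over all tested genes. SE was derived from the F statistic. Likeness used log2 CPM with a prior count of 2. DESeq2 1.42.0 and limma 3.58.1 (voom) were alternatives, beside other scalings, no filter, 2-group fits, a replicate block and leaving out libraries.

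Groups come from the labels. No label says whether replicates were separate cultures or animals, and p-values therefore reflect the scatter among these libraries, possibly technical. Replicates differed by more than sampling noise in every pair. Correlations of same-numbered libraries ran between -0.2 and 0.188, so the numbers were not taken as pairs. Between day 0 and day 8 alone, same-numbered libraries had 0.121, 0.071 and 0.0855. Libraries of these days with different numbers had -0.103 to -9.04e-05. Pairing is therefore not excluded, and a fit with replicate number as a block is given below. The members and lists were chosen with earlier results of these data known. Named pathway genes are, per list, up to 3 called genes with the smallest adjusted p in each comparison with day 0 and up to 2 between day 8 and day 4. A few genes that these rules would name are not reported here. Coding lengths were not used here, so levels were not compared between genes, and within-library ratios against their day 0 mean replace the planned isoform shares. In the older RefSeq build, non-coding genes overlap Tgfb2, Inhba, Bmp4, Bmp7 and Fst, and those present in the table had 0 to 4 counts in all.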

Additional observations from a re-analysis of the deposited data

How the results depend on the processing

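The fold changes of the 8 tested genes were recomputed under up to 18 alternatives per comparison, which gave 400 values with the same direction and call, 20 that lost the call, 3 that gained it and 8 that changed sign. The count of genes called between day 8 and day 4 was 5, and ran between 2 and 6 over fits that each left out 1 library, with 2 (1 higher and 1 lower) without day 8 replicate 1. The counts against day 0 ran between 6 and 7 at day 4 and between 6 and 8 at day 8. The replicate block gave 6, 6 and 5 called genes for day 4 against day 0, day 8 against day 0 and day 8 against day 4, where the fit without it gave 6, 8 and 5, and not every library correlated best with its own number. The sign changes were all in changes that were not called. For Fst at day 4 against day 0 the value was -0.083 with library totals, -0.057 with the upper quartile, -0.13 without day 0 replicate 2, -0.17 without day 4 replicate 2 (the range over 1 library left out is -0.17 to 0.27), and -0.17 without that library and day 8 replicate 3 together. For day 8 against day 4 it was 0.0071 for Tgfb2 (range over 1 library left out -0.75 to 0.0071) and 0.66 for Inhbb (range -0.75 to 0.66) without day 4 replicate 2, and 0.58 for Inhbb without that library and day 8 replicate 3. The cause was not tested. Library totals and the upper quartile moved the median of all genes at day 4 against day 0 to -0.17 and -0.14, beside -0.02 with TMM. The named pathway genes were picked for the smallest adjusted p in the main fit, so keeping their call was favoured from the start. Their 936 alternative values kept direction and call. Of the counts called per pathway list under the alternatives, 697 stayed close to the main count and 59 moved. Shares of isoforms per coding length were not run. Depth limits Bmp2, Bmp4 and Bmp7, which had at most 19 counts in any library.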
